A study of Mus musculus with 6 samples.

Results

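The EGR, NR4A and IER genes and Dusp1 are 10 of the 29955 genes in the expression table of mouse embryonic fibroblasts (MEFs) with and without RNF40, and were taken by symbol: Egr1, Egr2, Egr3, Nr4a1, Nr4a2, Nr4a3, Ier2, Ier3, Ier5 and Dusp1. All 10 were among the 16378 genes that passed the filter on low reads. The study asked how loss of RNF40, the E3 ubiquitin ligase that acts with RNF20 to monoubiquitinate histone H2B, changes transcription. RNA sequencing was done on 3 libraries of Rnf40+/+ MEFs and 3 libraries of Rnf40-/- MEFs, all primary cells at passage 3 grown with fetal bovine serum, and no label mentions serum starvation or restimulation. For the knockout, cells came from embryos with part of both Rnf40 alleles flanked by loxP sites and a CreERT2 transgene at Rosa26. They received 250 nM 4-hydroxytamoxifen (4-OHT) for 5 days and were then kept for 3 days without it. The sources do not say whether the Rnf40+/+ libraries carried CreERT2 or received 4-OHT, so deletion, Cre and drug cannot be told apart. Nor do they say that the 3 libraries of a genotype came from separate embryos or cultures, so p-values measure only the spread between these samples. Because bulk RNA was sequenced, fewer cells of a type and less RNA per cell cannot be told apart.

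Immediate early genes are switched on within minutes of growth factor, serum or stress signals, without new protein synthesis, mainly through preformed SRF with its TCF partners and through CREB acting downstream of the MAP kinase cascade. EGR proteins are zinc finger activators that bind GC-rich sites, and the NR4A proteins are orphan nuclear receptors that need no known ligand for activity. The IER proteins are small and diverse, and DUSP1 is the nuclear phosphatase that switches MAP kinases off. In cycling fibroblasts these genes are kept at a basal level, with transient bursts after stimulation. FOS and JUN genes, which form AP-1, are the best known members of the same response.

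Reads on genes ranged from 17053436 to 26344170 per library, and the third Rnf40+/+ library was the deepest. Values are normalized counts, that is reads divided by the size factor of the library, and 3 reads were worth 2.40 to 3.58 normalized counts. Rnf40 itself was at 1278, 1195 and 1096 normalized counts in Rnf40+/+ libraries and at 439, 519 and 487 in Rnf40-/- libraries, which left 40.5% of the wild-type mean. Only part of the gene lies between the loxP sites, so this share does not measure how complete the deletion was. All 10 fibroblast markers were tested, with summed levels of 669460 to 741500 normalized counts in Rnf40+/+ and 400460 to 403410 in Rnf40-/- libraries. Fn1 alone had means of 328300 and 210100. Of the 10 markers 8 fell (limma, adjusted p under 0.05), beside 24.1% of all genes tested, and Lum and Dcn did not pass the test. Other markers set single wild-type libraries apart. Acta1, a skeletal muscle actin, was at 4448 normalized counts in the first Rnf40+/+ library, 1905 and 1592 in the other two and 409 to 453 in Rnf40-/- libraries, while Myod1 had 0 reads in every library. C1qa, a macrophage complement gene, was at 1211 normalized counts in the third Rnf40+/+ library, 386 and 395 in the other two and 140 to 190 in Rnf40-/- libraries. Ddx3y, a Y-linked gene, was at 81.2 normalized counts in the first Rnf40+/+ library and at 0 to 7.14 in the other 5, and Xist was at 7178 to 9616 in all 6. Results below are therefore also given without single libraries where that moved a call or a direction.

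Of the 10 genes, 6 fell in Rnf40-/- MEFs (Egr1, Egr2, Egr3, Nr4a1, Nr4a2 and Ier2), 2 rose (Ier3 and Dusp1), and Nr4a3 and Ier5 did not pass the test (limma, adjusted p under 0.05 over all genes tested). Across all genes tested, 24.1% fell and 23.3% rose under the same rule, 47.4% in all, so changes in either direction were common in this comparison. Their median log2 fold change was -0.72, beside -0.0035 for all genes tested. Groups did not overlap for 9 of the 10 genes, 7 of them lower and 2 higher in Rnf40-/- libraries, where 28.7% and 27.8% of all genes tested did so (56.5% in all). Under the thresholds of the study applied to the limma fit (a mean above 15, an unadjusted p under 0.05 and a log2 fold change beyond 1 in size), 4 of the 10 fell (Egr1, Egr2, Egr3 and Nr4a1) beside 5.7% of all genes tested. The count was 3 without the first Rnf40+/+ library, when Egr1 was at -0.99. Under the same criteria Ier3 and Dusp1 no longer counted as higher, beside 4.25% of all genes. The 4 genes are also in the study's own list of downregulated genes, which was made from these same libraries and is not independent evidence of their direction.

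**Figure D1:**
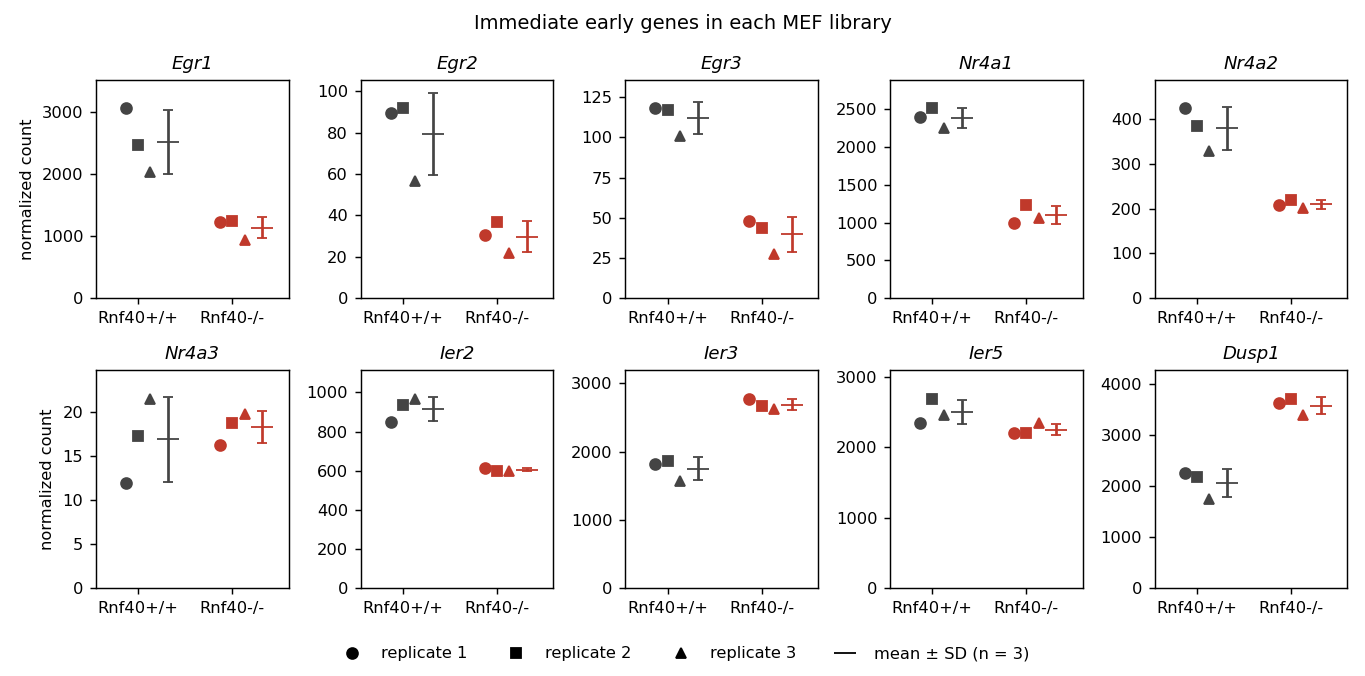
Normalized counts of the 10 genes (linear axis) in each of the 3 Rnf40+/+ and 3 Rnf40-/- libraries. Points are libraries and bars are means with SD. The genotypes are apart for every gene except Nr4a3, with Ier3 and Dusp1 higher and the others lower in Rnf40-/- libraries, Ier5 only narrowly.

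Each of the 3 EGR genes with enough reads fell. Egr1, the prototype of the family and a growth and stress responsive activator (ENSMUSG00000038418, mm9 chr18:35020861-35024638, plus strand), was at 3067, 2475 and 2028 normalized counts in Rnf40+/+ libraries and at 1226, 1244 and 942 in Rnf40-/- libraries. Each Rnf40-/- library was below each Rnf40+/+ library, with the first wild-type library the highest of all. The mean went from 2523 ± 521 (SD, n = 3) to 1137 ± 169, a log2 fold change of -1.14 (SE 0.14, 95% interval -1.44 to -0.84, limma adjusted p = 3.92e-05). Without that first wild-type library it was -0.99. The annotation places an antisense gene, Gm17507, across Egr1, and the strand setting of the authors' counting is not given in the sources used here, so reads from the antisense gene cannot be told apart from those of Egr1.

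Egr2, known for its role in Schwann cell myelination and hindbrain patterning (ENSMUSG00000037868, mm9 chr10:66998223-67004936, plus strand), was far less abundant, at 89.6, 91.8 and 56.7 normalized counts in Rnf40+/+ and 30.6, 36.5 and 21.7 in Rnf40-/- libraries. Here too the genotypes stood apart, and the third library was the lowest in each. The log2 fold change was -1.39 (SE 0.27, 95% interval -1.99 to -0.79, limma adjusted p = 0.00128), which left 37.3% of the wild-type mean. Egr3, a family member studied in muscle spindles and lymphocytes (ENSMUSG00000033730, mm9 chr14:70477252-70479964, plus strand), was at 118, 117 and 101 normalized counts in Rnf40+/+ and 47.9, 43.8 and 27.4 in Rnf40-/- libraries. Its 3 wild-type libraries were close together, and all 3 knockout libraries were far below them. With a log2 fold change of -1.51 (SE 0.23, 95% interval -2.02 to -1.0, limma adjusted p = 0.000231), Egr3 fell the most of the 10 genes and kept 35.4% of its wild-type mean. Only 2.50% of all genes tested had a lower fold change than Egr3, 2.99% had a lower one than Egr2 and 4.65% a lower one than Egr1. The intervals of the 3 EGR genes overlap one another. Egr4, the fourth EGR gene, had 22, 8 and 4 reads in Rnf40+/+ and 0, 1 and 2 reads in Rnf40-/- libraries and did not pass the filter on low reads. With all genes kept its limma adjusted p was 0.0150, lower in Rnf40-/- libraries, but no fold change is given because each knockout library was under 3 reads, and most wild-type reads came from the first library.

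In the NR4A family, 2 of 3 genes fell. Nr4a1, encoding NUR77 (ENSMUSG00000023034, mm9 chr15:101097277-101105223, plus strand), was at 2394, 2516 and 2252 normalized counts in Rnf40+/+ and at 999, 1226 and 1062 in Rnf40-/- libraries. Replicates lay close to each other within each genotype, and the 2 groups were far apart. The mean went from 2387 ± 132 (SD, n = 3) to 1096 ± 117, with a log2 fold change of -1.13 (SE 0.08, 95% interval -1.31 to -0.94) and the smallest limma adjusted p of the 10 genes, 7.51e-07. Nr4a2, encoding NURR1, which is needed for midbrain dopamine neurons (ENSMUSG00000026826, mm9 chr2:56959241-56976414, minus strand), was at 425, 385 and 329 normalized counts in Rnf40+/+ and at 208, 219 and 201 in Rnf40-/- libraries. Every knockout library was below every wild-type one, and the knockout libraries differed little. Its log2 fold change of -0.85 (SE 0.12, 95% interval -1.11 to -0.59, limma adjusted p = 0.000105) left 55.1% of the wild-type mean.

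Nr4a3, encoding NOR1 (ENSMUSG00000028341, mm9 chr4:48058025-48099319, plus strand), was close to the limit of detection, with 10, 17 and 27 reads in Rnf40+/+ and 16, 18 and 21 in Rnf40-/- libraries. Scaled by library these were 11.9, 17.3 and 21.6 against 16.3, 18.8 and 19.8 normalized counts, and the knockout values lay inside the wild-type range. The log2 fold change of 0.14 (SE 0.35, 95% interval -0.62 to 0.90, limma adjusted p = 0.770) covered both a fall like that of Ier2 and a rise like that of Dusp1, and it turned to -0.08 without the first wild-type library. Its lower bound of -0.62 lay above the interval of Nr4a1 (-1.31 to -0.94) but inside that of Nr4a2 (-1.11 to -0.59). In this fit a fall as large as that of Nr4a1 was therefore not seen. A difference from Nr4a2 was not established, and smaller changes were not detectable at this depth.

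The IER genes did not move together. Ier2, a nuclear protein of the growth factor response (ENSMUSG00000053560, mm9 chr8:87185230-87186751, minus strand, a single exon), was at 848, 934 and 968 normalized counts in Rnf40+/+ and at 613, 599 and 601 in Rnf40-/- libraries. All 3 knockout libraries were lower, and they were almost equal. The log2 fold change was -0.60 (SE 0.08, 95% interval -0.77 to -0.43, limma adjusted p = 6.81e-05), or 65.9% of the wild-type mean. Ier3, also called IEX-1, a regulator of apoptosis and a target of NF-kappaB and p53 (ENSMUSG00000003541, mm9 chr17:35958629-35959868, plus strand), was at 1827, 1866 and 1568 normalized counts in Rnf40+/+ and at 2778, 2663 and 2618 in Rnf40-/- libraries. Here the order was turned round, with each knockout library above each wild-type one. Ier3 rose by 0.62 on the log2 scale (SE 0.08, 95% interval 0.45 to 0.78, limma adjusted p = 4.11e-05), to 153% of the wild-type mean.

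Ier5, which takes part in heat shock factor signalling (ENSMUSG00000056708, mm9 chr1:156943497-156946766, minus strand, a single exon), was at 2343, 2688 and 2461 normalized counts in Rnf40+/+ and at 2206, 2202 and 2341 in Rnf40-/- libraries. The genotypes just failed to overlap, the highest knockout library being 2340.7 and the lowest wild-type library 2343.1. Its log2 fold change of -0.15 (SE 0.07, 95% interval -0.30 to 0.0021) did not pass the test (limma adjusted p = 0.0972), and with single libraries left out the adjusted p ranged from 0.0506 to 0.276.

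Dusp1, the phosphatase that removes phosphate from p38, JNK and ERK (ENSMUSG00000024190, mm9 chr17:26642535-26645464, minus strand), was at 2258, 2176 and 1751 normalized counts in Rnf40+/+ and at 3628, 3722 and 3393 in Rnf40-/- libraries. Every knockout library was above every wild-type one. The mean went from 2062 ± 272 (SD, n = 3) to 3581 ± 169, a log2 fold change of 0.80 (SE 0.09, 95% interval 0.61 to 1.00, limma adjusted p = 2.07e-05). Of all genes tested, 92.2% had a lower fold change than Dusp1 and 88.4% a lower one than Ier3. The 8 called genes kept their direction and stayed past the threshold under all 17 alternatives tried, which include each library left out in turn.

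**Figure D2:**
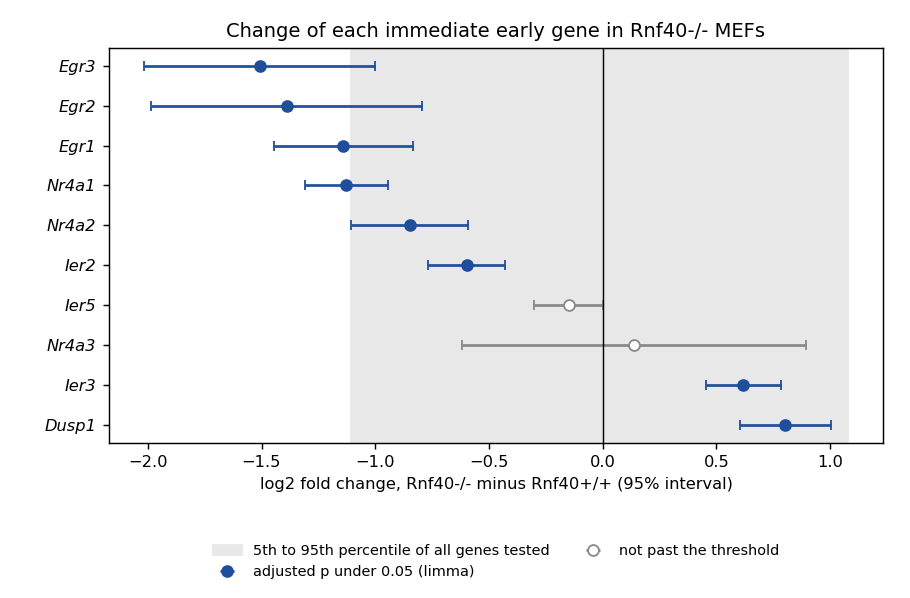
Log2 fold change, Rnf40-/- over Rnf40+/+, of the 10 genes with limma's 95% intervals. Egr3 (-1.51) is the lowest and Dusp1 (0.80) the highest, and the intervals of Nr4a3 and Ier5 include 0.

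**Figure D3:**
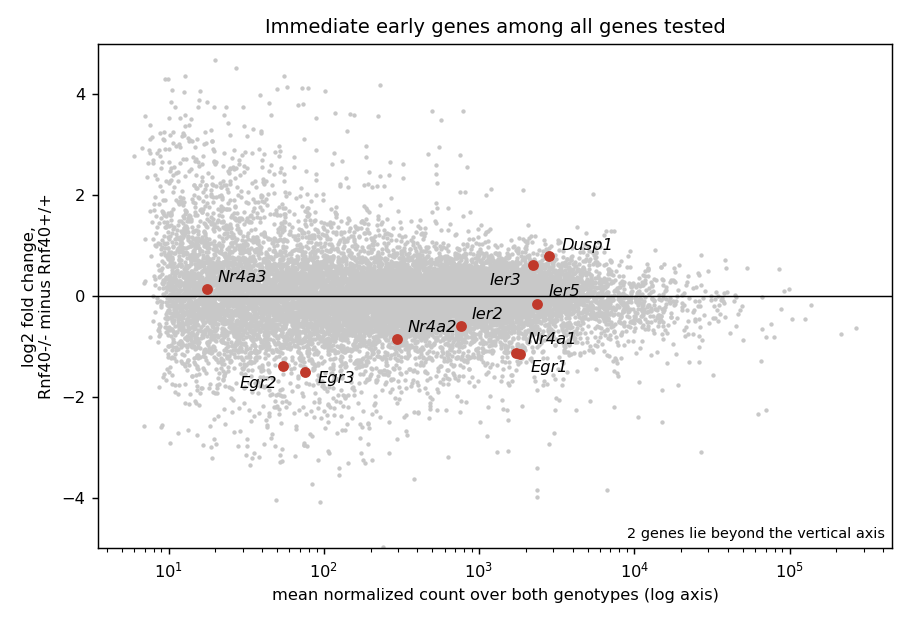
Log2 fold change (vertical) against mean normalized count (horizontal, log axis) of the 16378 genes tested, with the 10 genes marked. Beyond the vertical axis lie 2 genes. The EGR genes and Nr4a1 lie below the 5th percentile of all genes (-1.11) and Dusp1 and Ier3 below the 95th (1.08).

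Averaged over its members and set to 0 at the wild-type mean, the EGR family was at 0.20, 0.10 and -0.30 in the Rnf40+/+ libraries and at -1.18, -1.13 and -1.73 in the Rnf40-/- libraries on the log2 scale. The NR4A family, with Nr4a3 included, was at -0.09, 0.06 and 0.03 against -0.71, -0.52 and -0.61. Both families were therefore lower in each knockout library, the EGR family by more. The IER family was at -0.05, 0.08 and -0.03 against -0.03, -0.06 and -0.04, since the fall of Ier2 and the rise of Ier3 averaged out. The spread between replicates also differed among the genes. Egr2, Egr3 and Egr1 had a larger residual SD on the log2 scale than 84.9%, 79.6% and 74.7% of all genes tested, against 41.3% for Nr4a1 and 14.4% for Ier2.

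Per kilobase of the longest annotated coding transcript in mm9, Ier3 was the most abundant of the 10 genes in Rnf40+/+ MEFs, at 1551 ± 144 normalized counts per kb (SD, n = 3). Dusp1 followed at 1036 ± 137, Nr4a1 at 965 ± 53.4, Egr1 at 814 ± 168, Ier5 at 764 ± 53.6 and Ier2 at 602 ± 40.6, and neighbours from Dusp1 to Ier5 did not differ beyond their spread. Nr4a2 was next at 106 ± 13.5, then Egr3 at 79.1 ± 6.99 with an annotated transcript of only 1416 bases, Egr2 at 26.8 ± 6.63 and Nr4a3 at 2.96 ± 0.84. In Rnf40-/- MEFs the upper ranks were spread further, at 2375 ± 72.6 normalized counts per kb for Ier3, 1800 ± 85.0 for Dusp1 and 688 ± 24.2 for Ier5. Nr4a1 (443 ± 47.4), Ier2 (397 ± 4.97) and Egr1 (367 ± 54.6) then lay side by side within their spread, below Ier5.

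Ratios of 2 genes in the same library do not depend on its size factor. These pairs were chosen after the values had been seen. The log2 ratio of Egr1 to Dusp1 was 0.44, 0.19 and 0.21 in Rnf40+/+ and -1.57, -1.58 and -1.85 in Rnf40-/- libraries, so that Egr1 reads outnumbered Dusp1 reads in each wild-type library and Dusp1 reads outnumbered Egr1 reads in each knockout library. The difference of the means was -1.94. For Ier2 over Ier3 the log2 ratio was -1.11, -0.998 and -0.70 against -2.18, -2.15 and -2.12, a difference of -1.22. Nr4a1 over Ier5 was at 0.03, -0.10 and -0.13 against -1.14, -0.84 and -1.14, a difference of -0.98. None of the 3 ratios overlapped between genotypes. For each the exact two-sided permutation test gave p = 0.1, the smallest that 3 libraries against 3 allow.

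**Figure D4:**
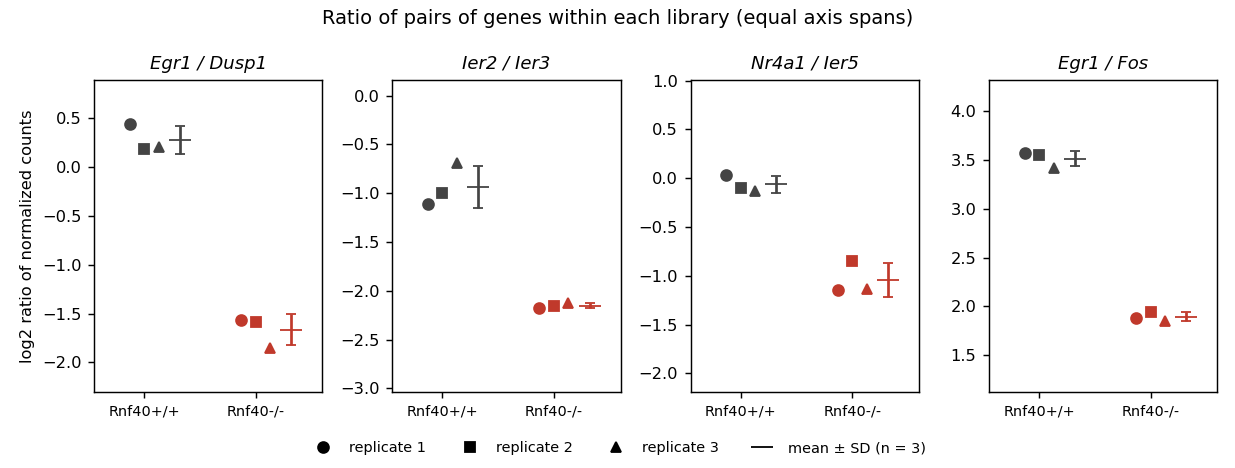
Log2 ratio of normalized counts of 2 genes within each library, for Egr1 over Dusp1, Ier2 over Ier3, Nr4a1 over Ier5 and Egr1 over Fos. Points are libraries and bars are means of 3 with SD. Every ratio is lower in each Rnf40-/- library than in each Rnf40+/+ library.

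The windows of 250 bases before the transcription start, from RefSeq on GRCm38.p6 (not the mm9 build of the expression table), were searched because the genes share known activators. Entries were found for 7 of the 10 genes: Egr2, Nr4a1, Nr4a2, Nr4a3, Ier3, Ier5 and Dusp1. Searched on both strands were the CArG box, to which SRF binds, TGACG, the core of the CREB element, and TGACGTCA, the full element, which holds TGACG on each strand. GCGNGGGCG, AAAGGTCA and TATAAA were searched in the same way and are not marked below. Windows of 4 genes are shown, 2 that fell, 1 not called and 1 that rose, with CArG box, TGACG and TGACGTCA matches in capitals (CGTCA is TGACG on the other strand). They are chr10:67537619-67537868 on the plus strand for Egr2, chr15:101266596-101266845 on the plus strand for Nr4a1, chr4:48045055-48045304 on the plus strand for Nr4a3 and chr17:26508473-26508722 on the minus strand for Dusp1. Egr2 has several annotated starts, and the window with the most matches over all the motifs searched is given.
Egr2: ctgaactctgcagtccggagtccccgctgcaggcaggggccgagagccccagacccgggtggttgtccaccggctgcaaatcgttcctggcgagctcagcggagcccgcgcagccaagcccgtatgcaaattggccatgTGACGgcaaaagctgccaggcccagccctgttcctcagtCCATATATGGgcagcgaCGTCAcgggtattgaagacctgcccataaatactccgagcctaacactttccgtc
Nr4a1: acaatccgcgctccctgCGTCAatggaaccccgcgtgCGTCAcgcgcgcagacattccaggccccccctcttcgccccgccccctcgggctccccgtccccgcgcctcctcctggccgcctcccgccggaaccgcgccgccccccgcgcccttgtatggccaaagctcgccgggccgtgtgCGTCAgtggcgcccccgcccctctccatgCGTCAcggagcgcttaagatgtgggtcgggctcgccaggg
Nr4a3: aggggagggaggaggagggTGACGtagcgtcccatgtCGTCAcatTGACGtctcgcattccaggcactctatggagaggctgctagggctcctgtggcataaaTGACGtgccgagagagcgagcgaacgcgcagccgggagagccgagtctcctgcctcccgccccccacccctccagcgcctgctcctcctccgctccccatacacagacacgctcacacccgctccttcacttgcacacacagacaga
Dusp1: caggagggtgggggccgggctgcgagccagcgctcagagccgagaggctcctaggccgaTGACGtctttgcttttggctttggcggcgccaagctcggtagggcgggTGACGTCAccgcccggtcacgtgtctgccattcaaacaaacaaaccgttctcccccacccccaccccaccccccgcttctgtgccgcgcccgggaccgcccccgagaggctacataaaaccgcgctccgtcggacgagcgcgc

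TGACG was present in 5 of the 7 windows, beside 17.8% of the 32851 windows in the RefSeq table. These 5 were Egr2, Nr4a1 and Nr4a2, which fell, Dusp1, which rose, and Nr4a3, which was not called, so the letters were found with every kind of outcome. The full TGACGTCA was in the Dusp1 window alone of the 7 (1.55% of all windows), at position -143 from the start. The single CArG box was in the Egr2 window at -72 (1.47% of all windows). The Egr2 window was picked from 5 annotated starts for having the most matches. Its matches are therefore not comparable with the shares of all windows. Windows of Nr4a1 and Nr4a2 also held GCGNGGGCG, the EGR binding site (4.70% of all windows). TATAAA was in the Nr4a2 window alone, at -164 (12.4% of all windows), and AAAGGTCA was in none of the 7 (1.34% of all windows). In the Ier3 and Ier5 windows none of these letters were found. A match is a description of the letters in a window and not of binding.

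Among the other immediate early genes, a list of 30 with 29 tested, 9 rose, 9 fell and 11 were not called, with a median log2 fold change of -0.04. With single libraries left out, 9 to 10 of them rose and 7 to 10 fell. Npas4, an activity dependent factor best known in neurons, fell the most, from 299 ± 15.1 to 41.6 ± 2.46 normalized counts (SD, n = 3), or 13.9% of wild type (log2 fold change -2.82, SE 0.15, limma adjusted p = 5.89e-08). Arc, a regulator of synaptic receptor traffic, fell from 85.7 ± 20.5 to 32.5 ± 7.08, and Zfp36, which promotes decay of AU-rich mRNAs, from 947 ± 82.7 to 564 ± 67.4. Atf3, a stress induced factor, rose from 119 ± 4.27 to 235 ± 22.1. Like the 10 genes, the wider class held members that moved in both directions. So did all genes tested, of which 23.3% rose and 24.1% fell. Of the 7 AP-1 genes 2 rose, Fos (log2 fold change 0.48) and Junb (0.67), and 4 fell, Fosb (-0.86) and Fosl1 (-0.56) the most. Egr1 reads exceeded Fos reads by 3.51 ± 0.08 on the log2 scale in Rnf40+/+ and by 1.89 ± 0.05 in Rnf40-/- libraries (SD, n = 3, exact two-sided permutation p = 0.1, the smallest possible). Fos lost its call without the second wild-type, the first knockout or the second knockout library (limma adjusted p 0.0530 to 0.0698), and Fosb without the second wild-type or second knockout library (0.0678 and 0.0636). Without the second library of either genotype, 1 AP-1 gene was called higher and 2 lower.

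**Figure D5:**
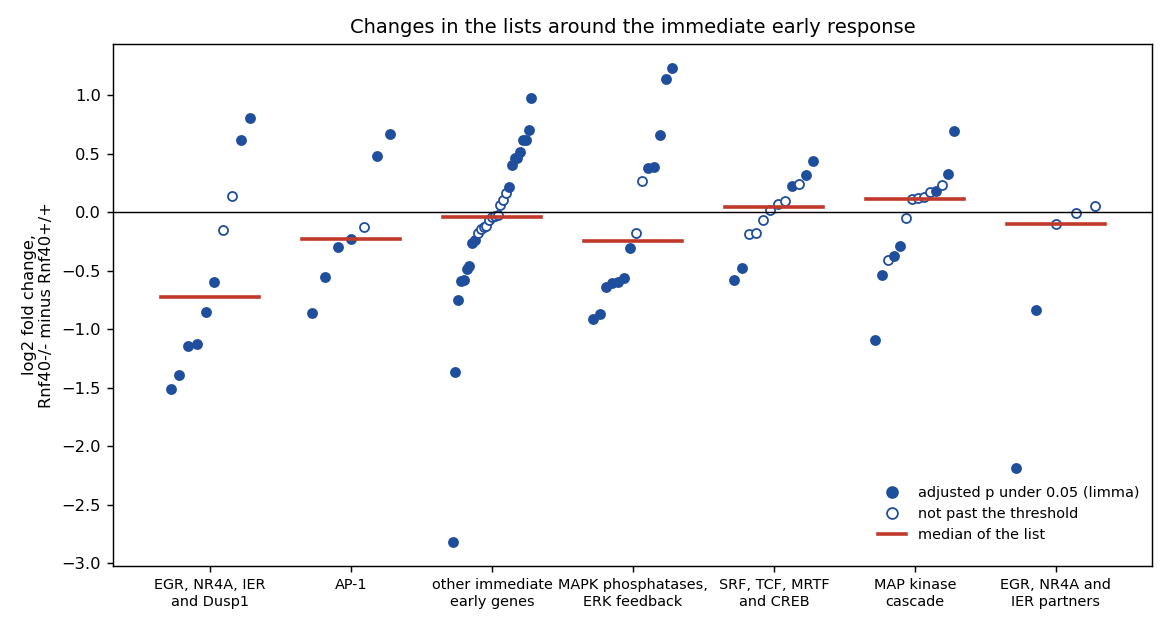
Log2 fold change, Rnf40-/- over Rnf40+/+, of each tested gene in each list. Filled points passed the test (limma, adjusted p under 0.05), open points did not, and lines are medians of the lists. Of the 10 genes 6 were lower and 2 higher. Of the 29 other immediate early genes tested, 9 were lower and 9 higher. Among all genes tested 24.1% were lower and 23.3% higher.

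Factors that act above these genes were also read beside the 47.4% of all genes tested that were called. Of 12 genes for SRF, the TCFs, the MRTFs and CREB with its coactivators, 2 fell, 3 rose and 7 were not called, with a median log2 fold change of 0.04. Srf fell from 1651 ± 19.4 to 1108 ± 18.5 normalized counts (SD, n = 3), or 67.1% of wild type (log2 fold change -0.58, SE 0.06, limma adjusted p = 1.67e-05), and its partner Elk1 to 71.8%. The MRTF gene Mkl2 (log2 fold change 0.43) and the CREB coactivator gene Crtc3 (0.32) rose, the latter not without the first knockout library (limma adjusted p = 0.0525), when 1 gene of the list was called higher. In the MAP kinase cascade, 3 of 14 tested genes rose, 4 fell and 7 were not called, with a median of 0.12. Nras fell to 46.9% of wild type and Braf rose to 162%, and Rps6ka3 and Map2k2 fell with log2 fold changes of -0.53 and -0.37. Without the first wild-type library 5 genes of the cascade were called higher. The fall of Map2k2 lost its call without the second knockout library (limma adjusted p = 0.0516).

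The other MAP kinase phosphatases and ERK feedback genes were split, with 5 of 14 tested genes higher, 7 lower and a median of -0.24. With single libraries left out, 4 to 6 were higher and 7 to 8 lower. Of all genes tested 23.3% were higher and 24.1% lower. Dusp14 rose from 653 ± 31.5 to 1538 ± 38.7 normalized counts (log2 fold change 1.23, SE 0.07, limma adjusted p = 1.13e-07) and Dusp8 from 98.8 ± 22.8 to 215 ± 15.2, or 217% of wild type. Errfi1, an inhibitor of the EGF receptor, fell to 53.2% and Spry1, an inhibitor of Ras signalling, to 54.7% of wild type. Among the partners and relatives, 2 of 5 tested genes fell, with a median log2 fold change of -0.10. Nab2, a corepressor that binds EGR proteins and is itself an EGR target, fell from 2272 ± 53.9 to 1269 ± 32.3 normalized counts (SD, n = 3, log2 fold change -0.84, SE 0.06, limma adjusted p = 7.86e-07). The related corepressor gene Nab1 was at 1001 ± 84.6 and 1038 ± 84.4, a log2 fold change of 0.05 with a 95% interval of -0.14 to 0.24 (limma adjusted p = 0.641). Ier5l, a relative of Ier5, fell to 21.6% of wild type, while Ier5 itself was at 90.1%.

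Values of other gene groups, only some of which differed between genotypes, stand beside these results. Each sum below takes in all genes of a list found in the expression table, also those that were not tested. The counts are to be read beside all genes tested, of which 24.1% fell and 23.3% rose, 47.4% in all. Of 5 proliferation genes all 5 fell, and their summed level was 2956 to 3844 normalized counts in Rnf40+/+ and 450 to 538 in Rnf40-/- libraries. Of 8 tested macrophage markers 2 rose and 3 fell, with sums of 5433 to 10381 against 3425 to 3815. Both tested skeletal muscle markers fell, with sums of 1707 to 4881 against 436 to 496. Of 4 tested endothelial markers 3 rose, at low sums of 51.0 to 146 against 179 to 283. The single tested epithelial marker, Krt18, and both tested neural markers were not called. Sums over all 4 epithelial markers were 23.5 to 83.6 against 24.0 to 42.8. The highest was in the first Rnf40+/+ library, where untested Krt8 was at 58.5. Sums over the 3 neural markers found were 1298 to 2705 against 1316 to 1517. Of 11 stress response genes, mostly heat shock proteins, 2 rose, 4 fell and 5 were not called, with a median of -0.08. The part of these groups in the changes of the EGR, NR4A and IER genes and Dusp1 was not tested.

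The genes whose values over the 6 libraries were most like those of Egr1, by root mean square difference of log2 values set to 0 at the wild-type mean among 11548 genes with a mean above 100, were Vrk1, a nuclear kinase (0.068), Sprr2k, a small proline rich protein (0.097), and Atp2b4, a calcium pump of the plasma membrane (0.10). Vrk1 went from 283 ± 41.5 to 130 ± 22.0 normalized counts (SD, n = 3). For Nr4a1 they were Tspan2, a tetraspanin (0.050), Hspb6, a small heat shock protein (0.051), and Rasa4, a GTPase activating protein of Ras (0.061). Tspan2 went from 1017 ± 93.1 to 478 ± 36.6 normalized counts. None of the 6 is an immediate early gene of the lists.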

How the data were processed

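RNA sequencing of 3 Rnf40+/+ and 3 Rnf40-/- MEF libraries, made with a directional kit, was analysed from the deposited table. The processing notes name Bowtie2 (version 2.1.0) and DESeq (version 1.14.0) and the build mm9, and the counting tool and its strand setting are not given in the sources used here. The deposited signal of a gene is, per the authors, its count divided by the DESeq size factor of the library. In every library 100% of the values were whole multiples of 1 read (tolerance 0.01), from which reads and size factors (0.837 to 1.25) were recovered.

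Genes were kept by filterByExpr of edgeR (version 4.0.16) by genotype, and log2(normalized count + 1) was tested with limma (version 3.58.1, lmFit and eBayes with a trend, genotype as the only term). Fold changes are on that scale, which understates those of low genes, and p-values were adjusted by Benjamini-Hochberg over all genes tested. The thresholds of the study (a mean above 15, an unadjusted p under 0.05 and a log2 fold change beyond 1 in size) were applied to the limma fit and not to DESeq. The script was tested on simulated data. Named genes are the 10 genes, Rnf40, the 4 genes with the largest change among those called in each pathway list, the partners Nab1, Nab2, Srf and Egr4, and the 3 genes most like Egr1 and Nr4a1. Marker, sex-linked and stress genes are given as values beside these. The genes and lists were chosen with earlier results of these data known. Hras and Map2 of the lists were not analysed here.

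Alternatives were TMM, size factors of DESeq2 (version 1.42.0) and upper-quartile normalization, the quasi-likelihood test of edgeR and the Wald test of DESeq2 on the recovered reads, pseudocounts of 0.1 and 10, all genes kept, only genes with 10 reads or more in each library or with a mean above 15, the replicate number as a block, and each library left out. Promoter windows of 250 bases came from RefSeq (GRCm38.p6), and gene positions from the annotation of mm9.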

Additional observations from a re-analysis of the deposited data

How the results depend on the processing

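The 8 called genes kept their direction and call under all 17 alternatives, and Ier5 stayed uncalled. Nr4a3 was -0.079 on the log2 scale without the first Rnf40+/+ library (0.32 at the other end of the range when single libraries were left out). Upper-quartile normalization, which shifted the median of all genes by 0.048, put the mean IER level at 0.0052 instead of -0.04 and called 6 MAP kinase cascade genes higher instead of 3. Ier3 and Dusp1 were higher by the main test, and 0 genes of the 10 were higher by the thresholds of the study applied to limma's unadjusted p, since neither reached a log2 fold change of 1. By those thresholds 4 were lower, and 3 to 4 with single libraries left out, an alternative chosen after seeing the data. When single libraries were left out, AP-1 genes called higher numbered 1 to 2 (1 without the second Rnf40+/+, first Rnf40-/- or second Rnf40-/- library) and lower 2 to 4 (2 without the second Rnf40+/+ or second Rnf40-/- library), SRF, TCF, MRTF and CREB genes called higher 1 to 3 (1 without the first Rnf40-/- library) and MAP kinase cascade genes called higher 2 to 5 (5 without the first Rnf40+/+ library). Nab1 went from 0.05 to -0.0090 without the second Rnf40-/- library and was at most 0.122 with another library left out. The causes were not tested. Of 510 comparisons for 30 further named genes, 502 kept direction and call, 7 lost the call and 1 changed direction.

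Deviations from the genotype mean of libraries with the same number correlated at 0.012, 0.017 and 0.021 across genes, so the numbers were not taken to pair the libraries. With the number as a replicate block, 6 of the 10 genes were lower and 2 higher as without it, 5 MAP kinase cascade genes were higher, and 4196 and 4021 of all genes were lower and higher, against 3955 and 3809. With 10 to 27 reads per library, Nr4a3 is limited by depth.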

Other observations

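Within each genotype, the third library held the lowest value of Egr1, Egr2, Egr3, Nr4a2, Ier3 and Dusp1, which are 6 of the 10 genes, while 14.9% of all genes tested were lowest in the third library of both genotypes. The pattern was noticed after the values were seen and was not tested, and the labels give no batch or day for the library numbers. It held for genes that fell and for genes that rose in Rnf40-/- MEFs.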
